A study of Mus musculus with 2 samples.

Results

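The sites described here are clusters of acetylated lysine 27 of histone H3 (H3K27ac) that carried more reads in mouse mesenchymal stromal cells without Dicer than in cells with it. They were found by joining events of the deposited list of H3K27ac sites higher in the knockout wherever neighbours lay at most 5 kb apart, and keeping joined regions of 4 or more events. This gave 239 regions with 1113 events, out of 5312 regions and 8323 events in that list and 21418 events in all lists of the series. An event is a point at which the authors' software placed a peak of reads. The groups were Dicer KO and Dicer WT, both immortalized monoclonal lines, so each genotype is represented by 1 clone, called fibroblasts in the titles. Both were profiled by chromatin immunoprecipitation followed by sequencing. The labels give 1 H3K27ac sample per genotype, and replicates were pooled in the list, so there is no replicate error and no test between genotypes. Intervals below are at 95%. Those of ratios are exact and cover counting error only. Those of shares and of medians treat events or regions as independent, and none holds replicate error. Positions are in mouse build mm9, and no gene is named because no annotation in that build was used here. Marker genes of the cell type could not be looked up for the same reason.

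Dicer is the ribonuclease that releases mature microRNAs from their precursors, and cells without it lack most microRNAs. H3K27ac is deposited by the acetyltransferases p300 and CBP and marks active enhancers and promoters. Stretches in which acetylated sites follow each other closely are known as stretch enhancers or super-enhancers, and they often lie near genes that define a cell type. H3K4me3 marks promoters and H3K36me3 is laid down along transcribed gene bodies, so neighbouring events of these marks describe what kind of chromatin surrounds an acetylated site.

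The contrast between KO and WT chose the members, so their H3K27ac values are a description. The median member region had 2275 KO reads (quartiles 1804 and 2773) against 730 scaled WT reads (563 and 945). WT reads are scaled to KO by the authors. The ratio of KO to WT reads summed over a region had a median of 3.05 (95% interval of the median 2.89 to 3.20), quartiles of 2.53 and 3.79, and a range of 1.75 to 15.1. In the 1677 regions of 2 or 3 events the median was 2.86, and at the 3396 events that stood alone it was 2.81. The number of events sets how many reads a region sums, so reads per region are not compared between these classes. In a bulk sample, more mark in each cell and more cells with the mark cannot be told apart.

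**Figure D1:**
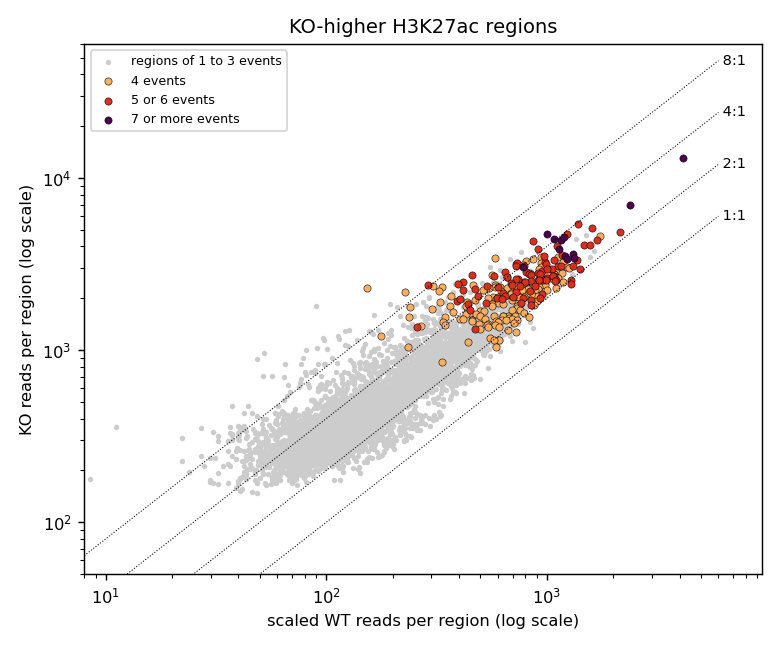
Reads summed over each region in KO (vertical axis) and scaled WT reads (horizontal axis), both on log scales, for the 239 clustered regions coloured by their number of events and, in grey, all regions of 1 to 3 events. Dotted lines mark ratios of 1, 2, 4 and 8, and the clustered regions sit at the upper right with ratios from 1.75 to 15.1.

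Most clusters were short. Exactly 4 events were found in 146 regions, 5 in 57, 6 in 24, 7 in 5, 8 in 5, 9 in 1 and 16 in 1. The median region was 8291 bp long, from 2934 to 25341 bp, and the regions covered 2096 kb in all. Neighbouring events were a median of 2149 bp apart (quartiles 1265 and 3439), and the closest pair was 469 bp apart. The members made up 13.4% of the events of the list, 16.2% of its KO reads and 16.7% of its reads in excess of scaled WT. Among the 100 events with the largest −log10 q in the authors' deposited table, 41 were members.

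The longest region ran from 92106978 to 92132318 on chromosome 15, with 16 events, 13019 KO reads and 4135 scaled WT reads, a ratio of 3.15 (3.05 to 3.25). Its signal was uneven. The first 8 events, up to 92117828, had between 324 and 644 KO reads against 139 to 258 scaled WT reads. The peak of the region lay at 92121062, 92124445 and 92126848, with 1748, 1694 and 1994 KO reads against 311, 334 and 525 scaled WT reads, ratios of 5.62, 5.07 and 3.80. At 92117828, 375 KO reads stood against 258 scaled WT reads, a ratio of 1.46 (1.25 to 1.70), the lowest of the 16. All 16 events are KO-higher by selection, and stretches between them were not examined. The ratios were largest at the 3 neighbouring events with the most reads.

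This region was also part of the largest group of clusters. Regions at most 100 kb apart were joined into groups, a distance chosen after earlier results were known. Of the 239 regions, 69 (28.9%) fell into 33 such groups. This share is not given here for smaller regions, so it is not read as a trait of the clusters. The group on chromosome 15 spanned 92106978 to 92254856 and held 4 regions with 28 member events, 19551 KO reads and 5670 scaled WT reads, a ratio of 3.45 (3.35 to 3.55). After the 16-event region came those starting at 92174419, 92184318 and 92243533, with ratios of 4.11, 4.34 and 4.36. Only 2 of its 30 KO-higher events were not members. No WT-higher H3K27ac event lay in its span, nor in that of any other group. Another group, of 3 regions, lay at 84299346 to 84405937 on chromosome 1, with 7216 KO reads against 1153 scaled WT reads, a ratio of 6.26 (5.91 to 6.64). Of the 20 KO-higher events in the span of this group, 14 were members. Its regions had ratios of 8.22, 6.12 and 5.16 in order along the chromosome, and their intervals of 7.33 to 9.23, 5.54 to 6.77 and 4.70 to 5.67 overlapped only between the second and the third.

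Other regions with many events were spread over several chromosomes. On chromosome 12, the 9 events at 41221537 to 41240900 had 4365 KO reads against 1165 scaled WT reads, a ratio of 3.75 (3.53 to 3.99). The events at both ends reached 5.21 and 5.31, while the event at 41231178 in the middle had 479 KO reads and 229 scaled WT reads, a ratio of 2.09 (1.79 to 2.43). The 8 events at 120984106 to 121005173 on chromosome 11 were far more even, with event ratios from 4.02 to 5.33 and a region ratio of 4.72 (4.43 to 5.04). On chromosome 6, 8 events at 99933566 to 99953743 held 6975 KO reads against 2386 scaled WT reads, a ratio of 2.92 (2.80 to 3.06). Further regions of 8 events lay on chromosomes 1 and 18, starting at 194632218 and 80816886, with ratios of 4.13 (3.88 to 4.40) and 2.77 (2.61 to 2.95).

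A pair of regions on chromosome 13 had 7 and 8 events. The one at 103341701 to 103355894 had 3503 KO reads against 1206 scaled WT reads, a ratio of 2.90 (2.73 to 3.09). The other, at 103434522 to 103449102, had 3883 against 1134, a ratio of 3.42 (3.22 to 3.65), and differed strongly within itself. At 103435469 KO had 636 reads and WT 87.4 scaled reads, a ratio of 7.28 (5.89 to 9.04). Less than 10 kb further on, at 103444342, KO had 223 reads and WT 156 scaled reads, a ratio of 1.42 (1.17 to 1.74). Among the 5 regions of 7 events, that at 49614290 to 49630319 on chromosome 17 had most KO reads (ratio 3.78, 3.56 to 4.02). Next came the region at 103341701 named above, then that at 10959893 to 10972147 on chromosome 8 (ratio 2.56, 2.41 to 2.72).

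**Figure D2:**
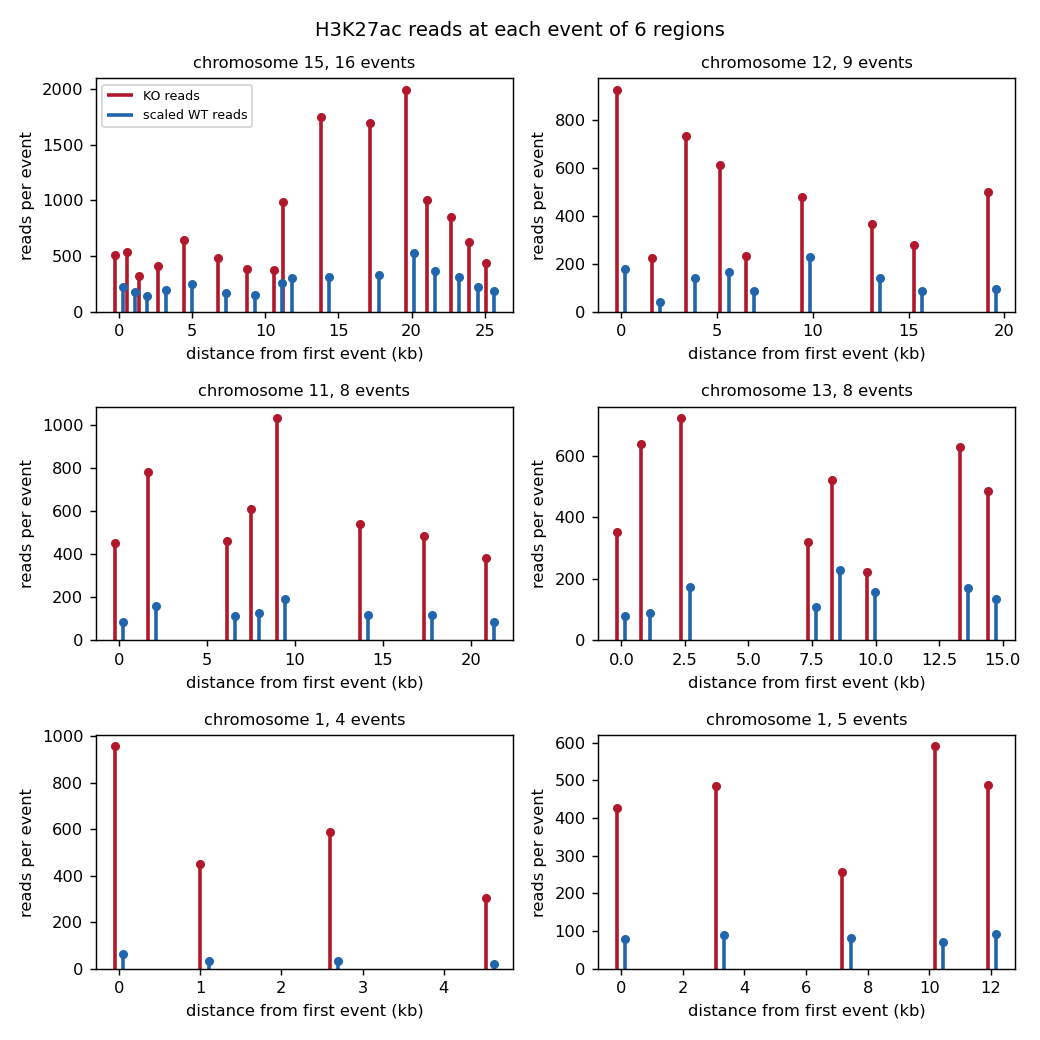
Reads at each event of 6 regions, KO in red and scaled WT in blue, against the distance in kb from the first event of the region. Markers of a pair are drawn slightly apart. The 16-event region on chromosome 15 peaks at 3 events of 1694 to 1994 KO reads, the region of 8 events on chromosome 11 is even, and that on chromosome 13 is not.

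The steepest differences were in shorter clusters. The 4 events at 9552456 to 9557020 on chromosome 1 had 955, 450, 587 and 305 KO reads against 65.4, 33.7, 33.8 and 19.7 scaled WT reads. Single events of this region had ratios from 13.4 to 17.4, and the region ratio was 15.1 (12.9 to 17.6). At 55578234 to 55584332 on chromosome 15, 4 events had 496, 409, 449 and 810 KO reads against 45.2, 45.7, 51.0 and 86.7 scaled WT reads, a region ratio of 9.47 (8.34 to 10.8). Next came the region at 84299346 on chromosome 1 named above, then those at 30564015 to 30572405 and at 39420333 to 39428240 on chromosome 6, with ratios of 7.71 (6.89 to 8.62) and 7.39 (6.51 to 8.40). These regions had 2297, 2165, 2387, 2360 and 1782 KO reads against 153, 229, 290, 306 and 241 scaled WT reads. All 5 WT values lay below the lower quartile of 563, which goes with choosing these regions by ratio and is no separate observation.

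At the other end, 4 events at 113114605 to 113118483 on chromosome 13 had 1271 KO reads against 726 scaled WT reads, a ratio of 1.75 (1.60 to 1.91). The region at 89514687 to 89520595 on chromosome 7 had 1045 against 588, a ratio of 1.78 (1.61 to 1.96). Those starting at 35996998 and 68316365 on chromosome 18 and at 83645076 on chromosome 4 had ratios of 1.87, 1.87 and 1.89. By KO reads, the leading regions after those on chromosomes 15 and 6 were 80137049 to 80146815 on chromosome 17, 55240910 to 55249595 on chromosome 6 and 121305686 to 121313636 on chromosome 3. They had 5437, 5125 and 4882 KO reads against 1382, 1601 and 2142 scaled WT reads. Their ratios were 3.93 (3.72 to 4.16), 3.20 (3.04 to 3.38) and 2.28 (2.17 to 2.39).

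Events of 1 region differed from each other by more than counting error. The SD of the log2 ratio was 0.45 within regions and 0.48 between region means, against a counting SD of 0.14 for a single event. Across 874 pairs of neighbouring member events, which share the libraries and stretches of chromatin, Pearson's r between log2 ratios was 0.567 and Spearman's rho 0.523. Between their log2 KO reads, r was 0.213 and rho 0.176. In regions of 2 or 3 events, 2137 such pairs gave higher values, r of 0.675 and rho of 0.594 for ratios and 0.382 and 0.323 for KO reads. The highest event ratio of a region was a median of 1.84 times its lowest. Chosen after its values were seen, the region at 49910629 to 49919507 on chromosome 17 had the widest spread, from 2.72 to 17.5. The narrowest, at 41556517 to 41562909 on chromosome 15, ran from 3.21 to 3.49. In regions of 4 events, the one with most KO reads was an inner event in 68 of 146 (46.6%).

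A ratio of at least 4 was reached by 278 of the 1113 members (24.98%), against 18.6% of all KO-higher H3K27ac events. A ratio of at least 2 was reached by 966 (86.8%), against 89.7%. The same contrast chose the members and nothing is read from these shares. Every event was at least 4-fold higher in KO in 17 regions (7.11%) and at least 2-fold in 136 (56.9%), while 116 regions (48.5%) had at least 1 event of 4-fold or more.

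The lists also give an expected number of reads per chromosome, called background reads here although the files do not define it. In units of each genotype's own background reads, the median member had 2.38 in KO (quartiles 1.72 and 3.36) and 1.15 in WT (0.824 and 1.51). Events in regions of 2 or 3 had medians of 2.03 in KO and 0.992 in WT, and events alone had 1.70 in KO and 0.817 in WT. Both genotypes thus had more reads at clustered events than at scattered ones. WT was at or below its background at 424 members (38.1%, 35.2 to 41.0), against 50.7% of events in regions of 2 or 3 and 67.1% of events alone. At or below 2 times background it lay at 1006 members (90.4%, 88.5 to 92.1), against 92.1% of events in regions of 2 or 3 and 95.5% of events alone. Both intervals treat events as independent, although members of 1 region are neighbours, so they can be too narrow.

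On this scale the differences were smaller. The median region ratio was 2.17 (2.08 to 2.25), with a range of 1.22 to 10.4, and 149 regions (62.3%) stayed at 2 or more. A ratio of at least 4 was then reached by 8.0% of members. That share is not given here for all KO-higher events, so no trait of the members is read from it. All 239 regions remained above 1, which is no test, because their events were chosen as KO-higher. Of the members, 25 events (2.25%) fell below 1, against 1.73% of events in regions of 2 or 3 and 0.618% of events alone. Of all KO-higher events on placed chromosomes, 55.8% were at least 2-fold higher in KO in these units, against 58.9% of members.

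**Figure D3:**
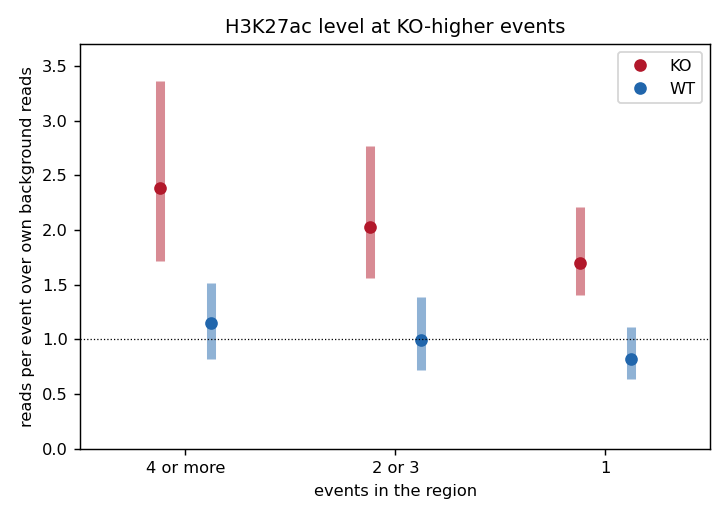
H3K27ac reads per event divided by the genotype's own background reads on the chromosome, for KO (red, left) and WT (blue, right), by the number of events in the region. Points are medians and bars run between quartiles. The medians decline in both genotypes from clustered to single events, from 2.38 to 1.70 for KO and from 1.15 to 0.817 for WT, and the dotted line marks the background.

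Clusters were unevenly spread over chromosomes. Chromosome 1 held 36 regions, chromosomes 6 and 12 held 24 each and chromosome 15 held 16. As a share of the KO-higher events on the chromosome, members were most frequent on chromosome 15 (79 of 372 events, 21.2%, 17.2 to 25.7) and chromosome 1 (166 of 835, 19.9%, 17.2 to 22.8). They were least frequent on chromosome 9 (0 of 118 events, interval 0 to 3.08%), chromosome 19 (4 of 131, 3.05%, 0.838 to 7.63) and chromosome X (6 of 89, 6.74%, 2.51 to 14.1). These intervals treat events as independent, although the rule takes them in groups. Background reads moved with this order in part: KO over WT was 0.717 on chromosome 9, 1.01 on 19, 0.997 on X and 1.44 on 12, but 1.18 on chromosome 15. Chromosome 11, with 1.29, had 9.16% members, and chromosome 4, with 0.999, had 11.1%. The part of background in these shares was not tested.

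The scale also changed the order of chromosomes by ratio. Chromosome 12 had the highest median region ratio at the scale of the list, 3.68, and 2.17 in units of background, as had all regions together. Chromosome 4, where background reads were nearly equal in KO and WT (185.4 and 185.5), had a median of 3.56 at the scale of the list and the highest in units of background, 3.03, over 9 regions. Chromosome 16 had 2.47 and 1.78 over 8 regions.

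**Figure D4:**
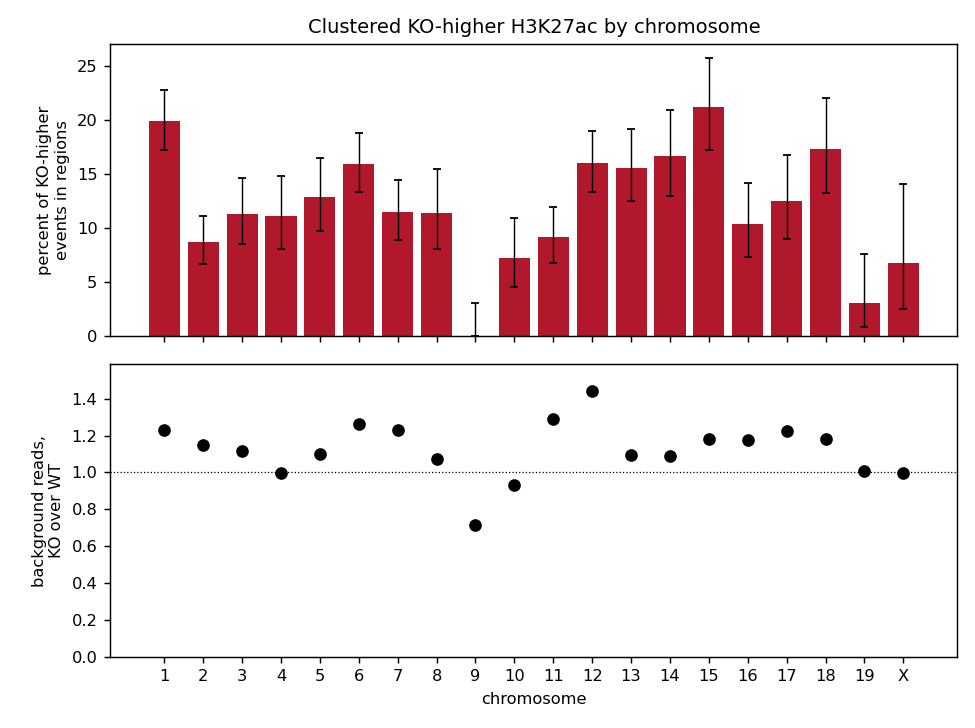
Top, percent of the KO-higher H3K27ac events of each chromosome that were members of clustered regions, with 95% exact binomial intervals. Bottom, background reads of the H3K27ac lists, KO over WT, with a dotted line at 1. Chromosome 9 had no member among 118 events and the lowest background ratio, 0.717.

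H3K4me3 was not used to choose the members. The lists of this mark and of H3K36me3 name the same genotypes, but the labels describe no sample for them, and the lists do not say whether replicates were pooled. An H3K4me3 event higher in KO lay within 1 kb of 40 of the 1113 members (3.59%, 2.58 to 4.86), against 4.61% of all KO-higher H3K27ac events. The shares were 5.19% (4.51 to 5.94) in regions of 2 or 3 events and 4.30% (3.64 to 5.04) for events alone. Per event the clusters were therefore near the background. Counted per region, 24 of 239 (10.0%, 6.54 to 14.6) had such an event, against 8.05% (6.79 to 9.46) of regions of 2 or 3 events and 4.30% of single events, which offer fewer places to find one. In the clusters, a search to 5 kb, which reached 7.46% of members against 6.68% of all KO-higher events, found the same number of regions. Beside them lay 35 H3K4me3 events, 4.74% of the 738 in the list. Their ratio, summed per region, had a median of 3.44 and a range of 2.15 to 26.3, against a median of 4.10 over all events of that list with WT reads.

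The regions with most H3K4me3 events were on chromosomes 1 and 2. At 142068723 to 142080766 on chromosome 1, the 5 H3K27ac events had 426, 486, 257, 590 and 487 KO reads against 79.0, 89.2, 81.8, 71.9 and 93.5 scaled WT reads, and the region ratio was 5.41 (4.90 to 5.97). Beside them lay 4 H3K4me3 events, and that at 142079021 was 26 bp from the H3K27ac event with the highest ratio, 8.21, at 142079047. It had 541 KO reads against 10.3 scaled WT reads, a ratio of 52.5 (21.5 to 156). The H3K4me3 event at the opposite end, at 142068396, had 132 against 42.9, a ratio of 3.08 (1.91 to 5.20). The steepest events of both marks in this region lay together at one end.

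A similar arrangement was seen at 118993430 to 119000991 on chromosome 2, where the H3K27ac ratios along the region were 2.31, 2.0, 4.82 and 5.76. The 4 H3K4me3 events at 118999265, 119000619, 119001182 and 119001778 lay at the end with the larger values, with ratios of 2.47, 6.49, 41.3 and 94.2. With only 3.6 scaled WT reads behind it, the last had an interval of 21.7 to 655. At 135564335 to 135568855 on chromosome 2, with an H3K27ac ratio of 4.96 (4.46 to 5.52), 3 H3K4me3 events had ratios of 9.26, 10.9 and 28.8. Regions at 167642684 to 167653959 on chromosome 2 and at 86992803 to 87003924 on chromosome 7 had 2 H3K4me3 events each. Over the 24 regions, Pearson's r between the log2 ratios of both marks was 0.329 and Spearman's rho 0.245, a description over regions from the same cell lines.

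H3K36me3 events higher in KO were sought within 10 kb. They lay near 144 members (12.9%, 11.02 to 15.1), against 8.27% of all KO-higher H3K27ac events, 8.65% (7.78 to 9.59) in regions of 2 or 3 events and 6.30% (5.51 to 7.17) for events alone. Members of 1 region share such neighbours, so the intervals over events are too narrow. The 144 events came from 37 regions (15.5%, 11.1 to 20.7), against 9.42% (8.07 to 10.9) of regions of 2 or 3 events. Smaller regions offer fewer places to find such an event, so the shares per region are not alike. The 86 H3K36me3 events beside the 37 regions were 5.03% of the 1709 in the list. Within 1 kb the shares were 1.53% of members, against 0.853% of all KO-higher events, 0.813% in regions of 2 or 3 events and 0.677% of events alone.

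**Figure D5:**
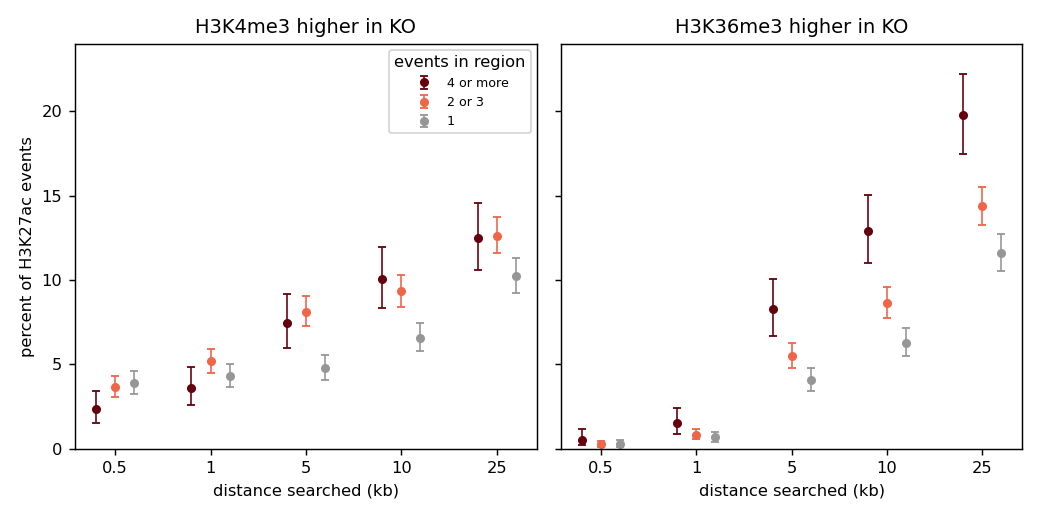
Percent of H3K27ac events with a KO-higher event of H3K4me3 (left) or H3K36me3 (right) within the distance on the horizontal axis, by number of events in the region, with 95% exact binomial intervals that treat events as independent. Within 1 kb of H3K4me3 the clustered events stand at 3.59% and single events at 4.30%, and within 10 kb of H3K36me3 at 12.9% and 6.30%.

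The region with most H3K36me3 neighbours, 9900441 to 9912777 on chromosome 12, had 11 of them, with ratios from 3.03 to 15.5, and an H3K27ac ratio of 3.04 (2.83 to 3.26). It also had an H3K4me3 event 40 bp from one of its 6 H3K27ac events, with 247 KO reads against 40.8 scaled WT reads, a ratio of 6.05 (3.80 to 10.2). Beside the region from 49614290 to 49630319 on chromosome 17, 5 H3K36me3 events had 69.6, 75, 102, 125 and 117 KO reads against 3.8, 4.6, 4.8, 4.6 and 2.3 scaled WT reads. The last of these had a ratio of 50.9, with an interval of 19.3 to 190. This was the steepest H3K36me3 change beside the named regions, where H3K27ac was 3.78-fold higher. Regions at 90873780 to 90885734 on chromosome 16, 118356206 to 118363577 on chromosome 2 and 118006246 to 118013959 on chromosome 13 had 8, 5 and 5 such events, with H3K27ac ratios of 2.28, 3.22 and 3.77.

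Both other marks were found near 8 regions, at least one near 53 and neither near 186. Such combined counts are not given here for smaller regions, so they are not read as a trait of the clusters. The lists hold only sites that differed between genotypes, so a promoter with equal H3K4me3 in KO and WT would not appear in them. The name enhancer domain could therefore not be checked for any region without a listed H3K4me3 event, and all regions are called clusters here.

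Events in the opposite direction were rare around the clusters, as they were around all KO-higher H3K27ac events. No H3K27ac event higher in WT lay within 50 kb of any member region, and the nearest was 89.2 kb from the region at 86992803 on chromosome 7. Of all KO-higher events 0.541% had one within 50 kb, which came from 14 of 1677 regions of 2 or 3 events and 15 of 3396 events alone. H3K4me3 higher in WT came within 10 kb of 4 members (0.359%), against 0.493% of all KO-higher events, and H3K36me3 higher in WT of 11 members (0.988%), against 1.17%. These members belonged to 4 regions. At 86606493 to 86615073 on chromosome 12, H3K27ac had 520, 723, 290 and 273 KO reads against 81.6, 125, 107 and 116 scaled WT reads, a ratio of 4.21 (3.81 to 4.66). Within it, at 86611362, H3K4me3 had 27.6 scaled KO reads against 80 WT reads, a ratio of WT to KO of 2.90 (2.05 to 4.12). It was the only H3K4me3 event higher in WT within 10 kb of a member.

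The other 3 such regions had H3K36me3 events higher in WT. At 86187378 to 86196633 on chromosome 12, with an H3K27ac ratio of 3.62 (3.40 to 3.86), an H3K36me3 event inside the region at 86194269 had 22.1 scaled KO reads against 81 WT reads, a ratio of WT to KO of 3.67 (2.03 to 7.19). The region at 87166314 to 87174028 on chromosome 6 (H3K27ac ratio 2.09, 1.97 to 2.22) had 4 H3K36me3 events higher in WT on its flanks. That at 100249907 to 100261329 on chromosome 11 (H3K27ac ratio 4.34, 4.02 to 4.68) had 1 at 8934 bp from its nearest event.

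The limit of the rule cut through continuous series of values. Regions of 4 events, just inside, had a median ratio of 2.89 (quartiles 2.48 and 3.73), and the 460 regions of 3 events, just outside, had 2.91 (2.43 and 3.77). Widest gaps of 4999, 4995 and 4994 bp kept together the regions starting at 45472105 on chromosome 4, 51944319 on chromosome 3 and 49614290 on chromosome 17, with ratios of 2.26, 3.16 and 3.78. Gaps of 5012, 5014 and 5018 bp kept apart sets of 4 events starting at 93474292 on chromosome 1, 55262067 on chromosome 6 and 65993168 on chromosome 14, with ratios of 5.66, 3.17 and 2.32. The KO-higher event with the largest −log10 q in the authors' deposited table, at 92098909 on chromosome 15, was no member. It lay 8069 bp from the 16-event region and had 3362 KO reads against 684 scaled WT reads, a ratio of 4.91.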

How the data were processed

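Alignment was to mm9 and TopHat 1.4 is named without its role, per the submitters' processing notes. The deposited lists are events of GPS or GEM, per the file headers and names. The authors' estimated count of an event is the reads assigned to it in the higher genotype. Their control column is a scaled signal of the other genotype, and the deposited fold is the ratio of both. The deposited −log10 q values start at 2 and stop at 999. No depth per library is given.

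The control's scaling factor was recovered as a step from 0.3 to 3. At that step the share of control values whole within 0.06 most exceeded the share given by chance. Only events with a whole count in the higher genotype and a control above 0 were used. The factor was 0.8495 for WT in the H3K27ac list of KO (88.8% of 3971 values whole). For the H3K4me3 list of WT only 54.3% of 1139 values were whole, so its intervals are less sure. Unscaled reads gave exact conditional binomial (Clopper-Pearson) intervals of ratios. Reads are not independent molecules, so these can be too narrow. Shares have exact binomial intervals. Medians over regions have binomial rank intervals, which reflect the spread between regions and not the counting of reads. Own-background ratios divide each genotype's unscaled reads by the expected reads of its own list.

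Regions named were the 10 with most events, the 5 highest and 5 lowest ratios, the 5 with most KO reads, the 5 with most neighbours of each other mark, all with WT-higher neighbours within 10 kb, and those at the limit of the gap. Ties, at 7 events and at 2 H3K4me3 neighbours, went to the region with more KO reads. Members and settings were chosen with earlier results of these data known. Joining was tested on simulated data, where 200 of 200 planted regions were found among 1000 simulated events. The planted gaps were evenly spaced and far from the limit, so this checked only that the rule ran as written. Analyses ran in Python 3.11.15 (pandas 2.3.3, NumPy 2.4.6, matplotlib 3.10.9, SciPy 1.17.1). Sequences were not printed, for want of a genome in mm9.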

Additional observations from a re-analysis of the deposited data

How the results depend on the processing

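Membership followed the rule. Joining within 2.5 kb left 66 regions with 286 events, 10 kb gave 494 with 2647, and a gap 2.5 times that of the rule gave 543 with 3106. At least 3 events gave 699 regions with 2493 events, and at least 5 gave 93 with 529, of which 28.4% were at least 4-fold and 88.3% had WT at or below 2 times background. Without chromosomes 9 and 12 the last share was 92.8%. With limits of 1.5 and 3 times background it was 74.4% and 98.0%. In units of own background the median region ratio was 2.17 and 8.0% of members were at least 4-fold. With the factor of the WT list (inverted, chosen after seeing the data) these were 2.83 and 20.9%. KO-higher H3K36me3 within 25 kb was found near 22.2% of regions. The other 42 of 62 alternative values stayed within 1.5 times the count or within the interval of the value reported. That band is wide for counts: among these 42, a −log10 q of at least 5 left 172 regions with 797 events. No paired analysis was possible because each list pools a genotype into 1 value, which also leaves no replicate to omit. Few WT reads limit the steepest ratios.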

Other observations

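Directions of H3K27ac did not mix within 10 kb in the deposited lists. None of the 8323 KO-higher events had a WT-higher H3K27ac event within 10 kb, neither the 1113 members nor the 3814 events in regions of 2 or 3 nor the 3396 alone. Within 25 kb, 0, 5 and 3 events of these classes had one. Whether the authors filtered the lists for such pairs is not given in the sources used here, so what the exact 0 means is unknown.

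The factors between genotypes recovered from the H3K27ac lists were not inverse to each other. WT was multiplied by 0.8495 in the list of KO, while KO was multiplied by 1.0935 in the list of WT, whose inverse is 0.914. For H3K36me3 the factor of the KO list was 0.575 and the inverse of the other 0.589, and for H3K4me3 they were 2.15 and 2.17.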
